A study of Arabidopsis thaliana with 39 samples.

Results

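The WRKY transcription factors are a family of plant DNA-binding proteins, and 59 of the 32678 Arabidopsis thaliana genes in the deposited counts are described here. Members were taken by their locus identifiers. All 59 bear a WRKY name in the RefSeq gene table of assembly TAIR10.1, which lists 72 WRKY loci, of which 13 are not members. They fall into subgroups I (12 genes), IIa (3), IIb (8), IIc (10), IId (7), IIe (7) and III (12), a division by domain number and sequence relationship that comes from the literature and not from these data. Of the 59 genes, 53 had enough reads to be tested among the 20748 genes that passed the expression filter.

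RNA came from whole seedlings, 5 days old and grown on solid MS medium of reduced strength, sequenced with the BGISEQ-500 protocol after oligo(dT) selection. The 4 genotypes were the wild type (WT), a mutant named glyI2, and a pair of lines labelled 35S::GLYI2 35S::GLYII4 #1 and #5, called OE1 and OE5 after their sample names, with transgenes under the 35S promoter that drives expression in most plant tissues. Seedlings of each genotype were left as mock (no treatment), kept in 100 mM NaCl or kept in methylglyoxal (MG) at 200 µM, with both treatments lasting 12 h. This made 12 groups, and every group had 3 libraries. The labels do not say whether the libraries of a group came from separate cultures, so a p-value here reflects library-to-library spread, which may be technical. Methylglyoxal is a reactive by-product of sugar breakdown that the glyoxalase I and II enzymes detoxify, and the series title links it to gene expression through a modification of histones.

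WRKY proteins bind W-box elements in promoters and act as activators or repressors. They are known above all from plant immunity, where MAP kinases phosphorylate some of them and VQ-motif proteins bind others. Members also act in senescence, phosphate supply, abscisic acid signalling and salt and osmotic stress.

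Each library held between 21024878 and 22383131 counted reads. GLYI2 (AT1G08110, named here from the study's label) stood at 55, 58.2 and 70.6 CPM in WT mock and at 9.47, 8.98 and 5.35 CPM in glyI2 mock. In mock it was not raised in the lines labelled as overexpressing it, with 29.8, 20.4 and 34 CPM in OE1 and 44.8, 50.8 and 58.2 CPM in OE5, so OE1 and OE5 name the libraries so labelled. GLYII4 (AT2G43430) was at 10.1, 9.67 and 12.5 CPM in WT mock, 30.7, 27 and 35.2 CPM in OE1 mock and 33.5, 37.2 and 25.5 CPM in OE5 mock. In MG-treated OE1 and OE5 it stood at 234, 285 and 381 and 283, 167 and 346 CPM. Replicate 3 of 7 groups was low in CCA1, a morning clock gene, with less than 3 on the log2 CPM scale. Those groups were all 4 NaCl groups and the mock groups of glyI2, OE1 and OE5. No MG library and no WT mock library was among them, and the WRKY calls that change without these libraries are given after the comparisons.

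The shoot markers RBCS1A, LHCB2.2 and LHCB1.1 and the root markers EXPA7, EXPA18, COBL9 and CASP1 were all detected. The sum over the 3 shoot markers ranged from 15761 to 50282 CPM in mock, 13382 to 37999 CPM in NaCl and 16515 to 48616 CPM in MG libraries. The sum over the 4 root markers ranged from 34.8 to 118 CPM in mock, from 30.6 to 80.2 CPM in NaCl and from 5.27 to 15.2 CPM in MG libraries. After MG all 4 root markers fell in all 4 genotypes, by log2 changes from −7.45 to −1.64, and no shoot marker was called. The changes of LHCB2.2 and LHCB1.1 in WT had SEs of 1.43 and 1.53, so moderate shoot changes could not have been called. Both genes were very low in the libraries low in CCA1. In glyI2 mock, for example, LHCB2.2 had 3014, 1134 and 12 CPM, the last in such a library. After NaCl CASP1 fell in glyI2 (−1.11 ± 0.34, adjusted p = 0.0391), and no other root or shoot marker was called within a genotype. In bulk RNA, fewer cells of a type and less RNA per cell cannot be told apart. The part of these root marker changes in the results on WRKY genes was not tested.

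In untreated wild type the family spanned widely in FPKM, the authors' value per gene length. WRKY15 (AT2G23320), a factor tied to oxidative and osmotic stress, was highest at 33 ± 1.02 FPKM (mean ± SD, n = 3), followed by WRKY65 (AT1G29280) at 29.7 ± 4.28 FPKM. WRKY7 (AT4G24240), WRKY11 (AT4G31550) and WRKY17 (AT2G24570), calmodulin-binding negative regulators of basal defence, came next with 22.7 ± 2.76, 19 ± 2.06 and 18.9 ± 1.63 FPKM. WRKY6 (AT1G62300), which controls phosphate export and senescence, stood at 14.6 ± 1.11 FPKM. Between most neighbours in this order the means differed by no more than the sum of their SDs. Subgroup IId had the highest median (18.9 FPKM), ahead of IIe (7.80), IIa (5.58), I (4.27), IIb (3.22) and IIc (1.61), and the lowest was III at 0.34 FPKM.

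**Figure D1:**
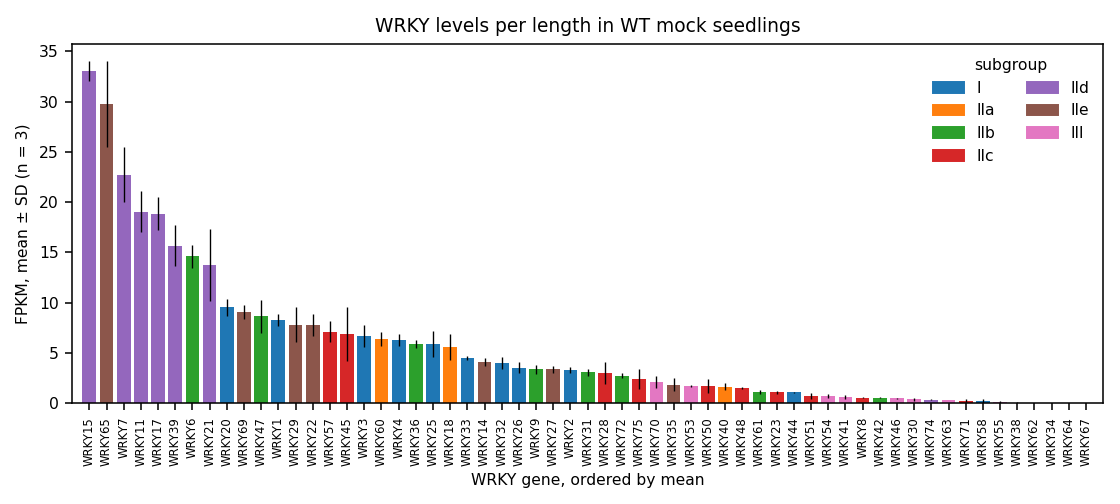
Level of each of the 59 WRKY genes in WT mock seedlings, as FPKM (y axis, mean of 3 libraries, bars give the SD), ordered by mean along the x axis and coloured by subgroup. WRKY15 is highest at 33.0 FPKM, and most subgroup III genes lie at the low end.

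The 6 genes left out of the tests were WRKY34 (AT4G26440), WRKY74 (AT5G28650), WRKY38 (AT5G22570), WRKY62 (AT5G01900), WRKY64 (AT1G66560) and WRKY67 (AT1G66550). WRKY34, a pollen factor, had 0 to 4 counts per library, WRKY38 had 0 to 5, WRKY62 had 0 to 7 and WRKY74 had 0 to 11. WRKY64 was seen in 1 library, MG-treated glyI2, with 2 counts, and WRKY67 in 2 libraries of the same group, with 5 and 1 counts. A count of 0 allows up to 3 counts, or 0.134 to 0.143 CPM in these libraries before TMM scaling. WRKY67 and WRKY64 are neighbouring loci of closely related sequence, so their counts are uncertain.

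After MG the share of WRKY genes called was above that of all genes in each genotype, a description with no test of the shares. In WT 17 rose and 2 fell, or 35.8% of the 53 tested against 10.7% of all genes. In glyI2 27 rose and 6 fell, or 62.3% against 29.2% of all genes. In OE1 16 rose and 3 fell (35.8% against 9.79% of all genes), and in OE5 15 rose and 2 fell (32.1% against 8.82%). The median log2 change over the tested members was 0.45 in WT, 0.97 in glyI2, 0.45 in OE1 and 0.45 in OE5, beside 0.00, −0.09, −0.03 and 0.00 over all genes tested. WRKY58 (AT3G01080), WRKY71 (AT1G29860), WRKY55 (AT2G40740) and WRKY63 (AT1G66600) passed the expression filter only through treated libraries. Among the 49 members that pass it on the mock libraries alone, the share called was 32.7% for WT, 61.2% for glyI2, 32.7% for OE1 and 28.6% for OE5, beside 10.2%, 28.4%, 9.29% and 8.40% of all genes that pass in the same way.

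**Figure D2:**
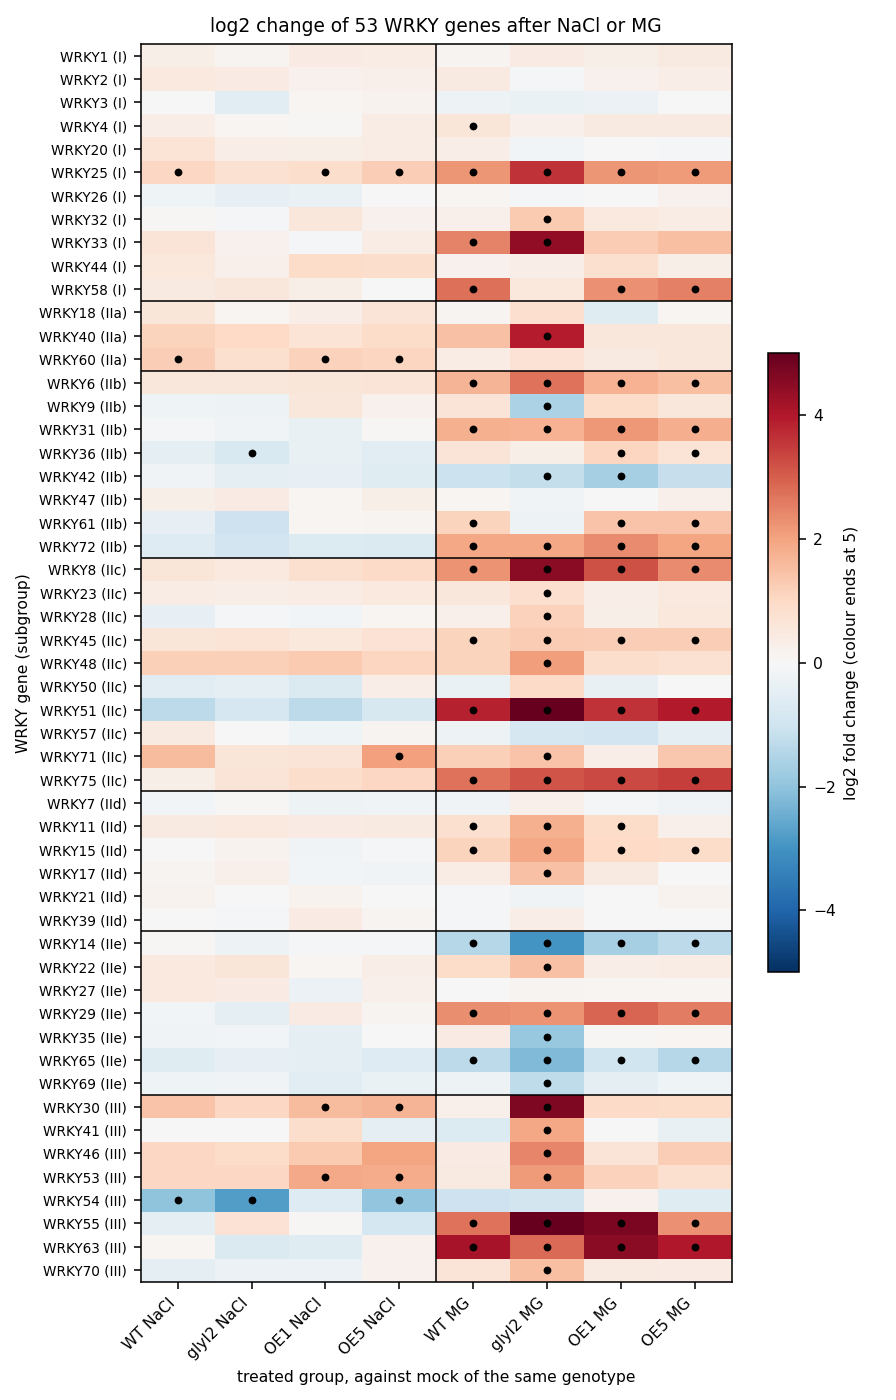
Log2 fold change of the 53 tested WRKY genes (rows, grouped by subgroup) after NaCl (left 4 columns) or MG (right 4 columns), each against mock of the same genotype with 3 libraries per group. Black dots mark changes called at an adjusted p under 0.05. The colour scale ends at 5, which 2 changes in MG-treated glyI2 exceed. The dots sit mostly in the MG columns, with 33 in glyI2 and 19 in WT.

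The same 12 genes rose after MG in each of the 4 genotypes: WRKY25 (AT2G30250), WRKY6, WRKY31 (AT4G22070), WRKY72 (AT5G15130), WRKY8 (AT5G46350), WRKY45 (AT3G01970), WRKY51 (AT5G64810), WRKY75 (AT5G13080), WRKY15, WRKY29 (AT4G23550), WRKY55 and WRKY63. WRKY14 (AT1G30650) and WRKY65 fell in all 4. The 12 make up 22.6% of the tested members, against 3.53% of all genes that rose in all 4, and the 2 make up 3.77%, against 2.67%. WRKY55 and WRKY63 are among those that passed the expression filter only through treated libraries. Without the 7 libraries low in CCA1, WRKY55 in OE5 was no longer called (1.9, adjusted p = 0.085), and the other calls of these 14 genes held. In all, 31 members rose in at least 1 genotype, 6 fell in at least 1, and 16 were called in none. These shares were 58.5% for rises, 11.3% for falls and 69.8% in either direction, against 16.4%, 15.9% and 32% of all genes. In WT the calls of WRKY4 (AT1G13960), WRKY33 (AT2G38470), WRKY61 (AT1G18860), WRKY45 and WRKY11 were each lost when at least 1 library was left out, with adjusted p up to 0.165, 0.0645, 0.232, 0.0787 and 0.145.

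In subgroup I, 4 of 11 tested genes rose in WT, or 36.4% against 10.7% of all genes called. Among them was WRKY58, which passed the expression filter only through treated libraries. WRKY25, known from heat, salt and oxidative stress responses, had 11, 7.17 and 9.37 CPM in WT mock, 23, 12.2 and 20.7 CPM after NaCl and 49.98, 27.9 and 48.2 CPM after MG. The 3 MG libraries were above every mock and NaCl library, and the log2 change from mock was 2.19 ± 0.27 (adjusted p = 5.44e-07). In MG-treated glyI2 it reached 116, 109 and 103 CPM, more than in any library of another group. WRKY33, a MAP kinase substrate that drives camalexin synthesis, was chosen for description after its values were seen. It had 8.65, 8.3 and 8.23 CPM in WT mock, 51, 22.1 and 66.9 CPM in MG-treated WT and 279, 319.6 and 292 CPM in MG-treated glyI2. All MG libraries lay above WT mock, with the glyI2 libraries apart from the rest, and the log2 changes were 2.48 ± 0.68 (adjusted p = 0.0144) in WT and 4.43 ± 0.74 (adjusted p = 2.86e-05) in glyI2. WRKY58, reported as a negative regulator of systemic resistance, was also described after its values were seen. It had 1.9, 2.1 and 1.44 CPM in MG-treated WT and 0.345, 0.508 and 0.561 CPM in MG-treated glyI2, and it rose in WT, OE1 and OE5 but was not called in glyI2 (0.53 ± 0.55, adjusted p = 0.513). The difference between the WT and glyI2 responses was not called either (−2.21 ± 0.77, adjusted p = 0.111). WRKY1 (AT2G04880), WRKY2 (AT5G56270), WRKY3 (AT2G03340), WRKY20 (AT4G26640), WRKY26 (AT5G07100) and WRKY44 (AT2G37260), the last of these a trichome and seed coat regulator, were called after MG in none of the genotypes. WRKY32 (AT4G30935) rose in glyI2 (1.32 ± 0.45, adjusted p = 0.0248) and was not called in the others.

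In subgroup IIa, WRKY18 (AT4G31800), WRKY40 (AT1G80840) and WRKY60 (AT2G25000) act as partly redundant regulators of defence and abscisic acid signalling. After MG the only call among them was WRKY40 in glyI2, at 29.3, 35.5 and 32.5 CPM against 1.26, 2.05 and 2.98 CPM in mock (3.93 ± 0.65, adjusted p = 2.35e-05). The groups did not overlap. In WT WRKY40 stood at 6.75, 2.16 and 7.0 CPM after MG and at 1.83, 1.65 and 2.28 CPM in mock, and 1 of the MG libraries lay within the range of mock. The MG response of glyI2 was not shown to differ from that of WT in all libraries, at 2.46 ± 0.85 (adjusted p = 0.109).

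In subgroup IIb, 4 of 8 genes rose in WT, or 50% against 10.7% of all genes called. WRKY6 had 31.2, 27.2 and 26.8 CPM in WT mock, 46.7, 34.7 and 44.6 CPM after NaCl and 105, 72.1 and 98.5 CPM after MG. The 3 treatments did not overlap, and the log2 change after MG was 1.69 ± 0.20 (adjusted p = 4.13e-07). WRKY72, which contributes to basal defence, had 5.35, 4.86 and 5.28 CPM in mock, 3.72, 3.95 and 2.17 CPM after NaCl and 20.9, 17.6 and 20.8 CPM after MG. Its MG libraries were the highest and its NaCl libraries the lowest, with 1.94 ± 0.35 (adjusted p = 0.000148) for MG. WRKY31 went from 5.17, 5.1 and 5.66 CPM to 20.02, 16 and 18.3 CPM (1.77 ± 0.30, adjusted p = 7.77e-05), again without overlap. WRKY42 (AT4G04450), which with WRKY6 represses the phosphate exporter gene PHO1, fell in glyI2 (−1.21 ± 0.40, adjusted p = 0.0238) and OE1 (−1.68 ± 0.45, adjusted p = 0.0126). In WT its change was −1.09 ± 0.42 (adjusted p = 0.112). WRKY61 rose in WT (1.12 ± 0.36, adjusted p = 0.0437), OE1 (1.42 ± 0.38, adjusted p = 0.0109) and OE5 (1.41 ± 0.37, adjusted p = 0.0108), and stood at 2.41, 2.38 and 1.28 CPM in MG-treated glyI2 beside 2.19, 2.37 and 2.67 CPM in its mock. WRKY36 (AT1G69810), a repressor of a light-signalling gene, rose in OE1 (1.08 ± 0.23, adjusted p = 0.00112) and OE5 (0.70 ± 0.22, adjusted p = 0.0481). Without the 7 libraries low in CCA1 the call in OE5 was lost (0.64, adjusted p = 0.115) and WT gained one (0.64, adjusted p = 0.0445). Its values were 4.9, 5.53 and 7.01 CPM in OE1 mock and 12.2, 14.6 and 10.1 CPM after MG, with no overlap. WRKY47 (AT4G01720) was called in no genotype.

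In subgroup IIc, 4 of 10 genes rose in WT, or 40% against 10.7% of all genes called. WRKY51, which with WRKY50 (AT5G26170) links salicylic acid to repression of jasmonate signalling, had 0.274, 0.613 and 0.633 CPM in WT mock, 0.194, 0.105 and 0.289 CPM after NaCl and 7.51, 6.12 and 8.62 CPM after MG. The MG libraries stood far above the others, with a log2 change of 3.85 ± 0.50 (adjusted p = 1.51e-06). In MG-treated glyI2 it had 34, 23.8 and 23.2 CPM, above all libraries of the other groups. WRKY50 was called in none of the genotypes, with log2 changes after MG of −0.34 in WT and 0.97 in glyI2, but without the 7 libraries low in CCA1 it was called in glyI2 (1.28, adjusted p = 0.0428). WRKY75, a phosphate starvation and senescence regulator, had 1.42, 1.32 and 2.49 CPM in WT mock and 13.4, 7.17 and 14 CPM after MG (2.72 ± 0.46, adjusted p = 7.46e-05). WRKY8, known from salt tolerance, had 0.778, 0.802 and 0.549 CPM in WT mock, 3.57, 2.1 and 4.5 CPM in MG-treated WT and 13.6, 17.8 and 12.6 CPM in MG-treated glyI2. In these genes no MG library of either genotype overlapped with its mock group. WRKY45, an activator of the phosphate transporter gene PHT1;1, rose by 1.12 ± 0.28 (adjusted p = 0.00672) in WT. Another 4 genes of the subgroup rose after MG in glyI2 and in no other genotype: WRKY48 (AT5G49520), a negative regulator of basal defence (2.08 ± 0.41, adjusted p = 0.000279), WRKY71 (1.42 ± 0.47, adjusted p = 0.0218), WRKY28 (AT4G18170), an activator of salicylic acid synthesis (1.15 ± 0.35, adjusted p = 0.0135), and WRKY23 (AT2G47260), a root and auxin transport factor (0.85 ± 0.27, adjusted p = 0.018). None of their responses was shown to differ between glyI2 and WT, and the call of WRKY71 was lost without the 7 libraries low in CCA1 (1.37, adjusted p = 0.0637). WRKY71 passed the expression filter only through treated libraries. In glyI2, 80% of the tested genes of the subgroup were called after MG, against 29.2% of all genes. The share of all genes that rose in glyI2 and in no other genotype was not computed.

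**Figure D3:**
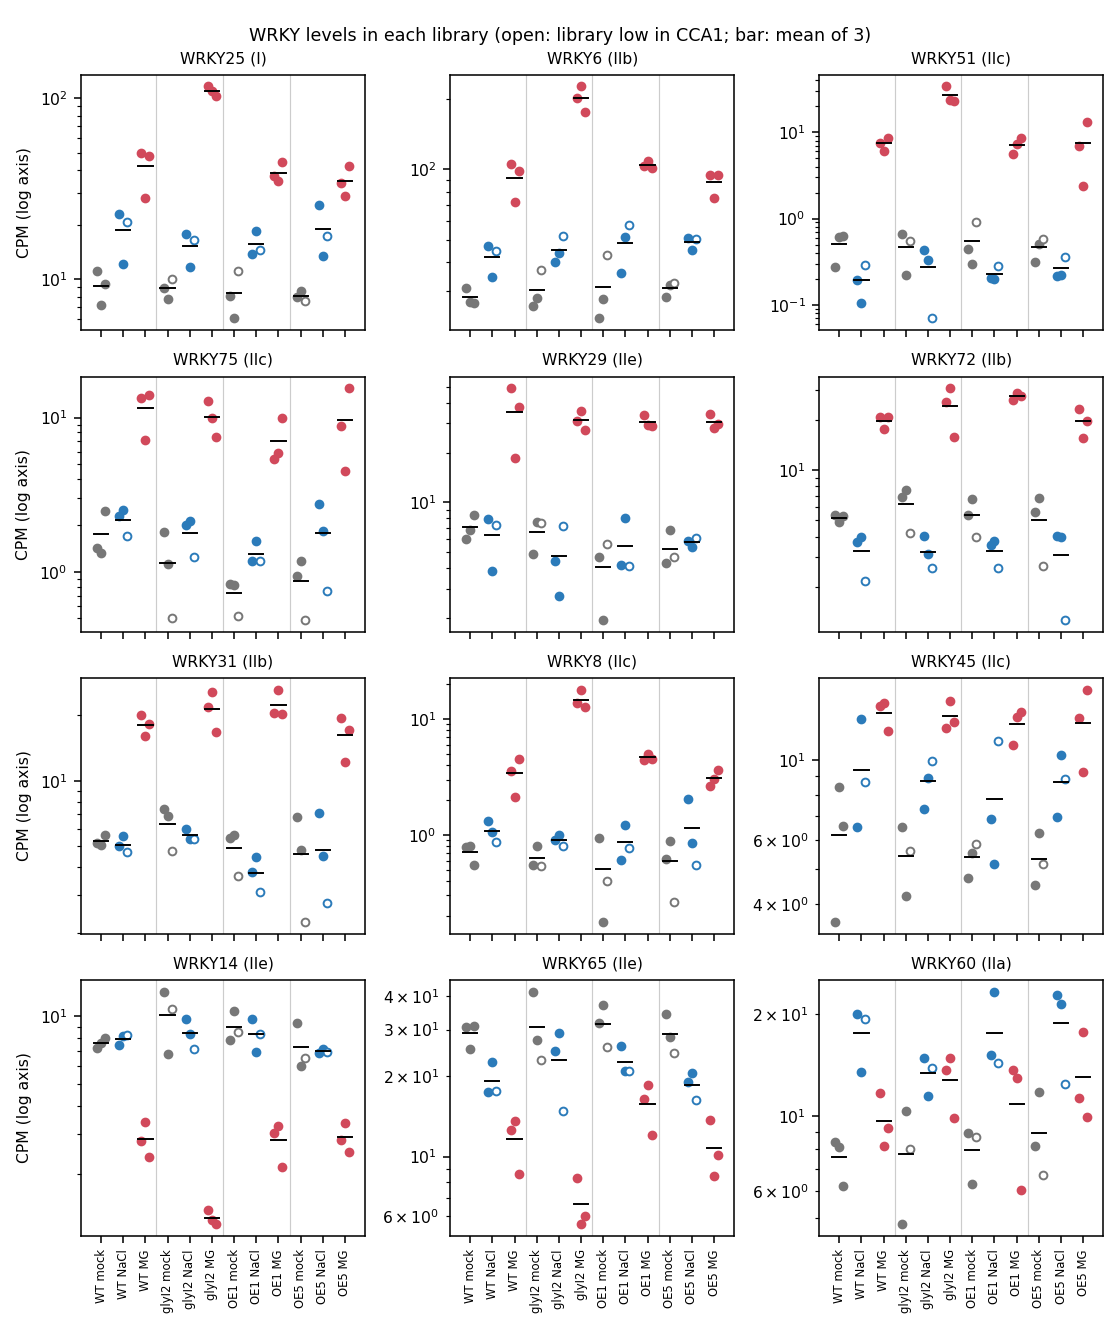
TMM-scaled CPM (log y axis) of 12 WRKY genes in each of the 36 libraries, by genotype and treatment (x axis); grey is mock, blue NaCl and red MG, bars are means of 3 libraries and open points are the 7 libraries low in CCA1. The MG points of WRKY25, WRKY6, WRKY51, WRKY75, WRKY29, WRKY72, WRKY31 and WRKY8 lie above mock in every genotype, and those of WRKY14 and WRKY65 lie below it.

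In subgroup IId, WRKY15 rose in all 4 genotypes, from 40.7, 40.1 and 38.9 CPM to 87.1, 95.2 and 79.3 CPM in WT (1.13 ± 0.26, adjusted p = 0.00341) and to 194, 171 and 152 CPM in glyI2. The groups did not overlap in WT, and NaCl left it at 37.5, 42.8 and 37.6 CPM. In OE5 the MG and mock libraries of WRKY15 overlapped (0.93 ± 0.26, adjusted p = 0.0202). WRKY11 rose in WT, glyI2 and OE1, whereas WRKY17, its close relative, was called in glyI2 (1.47 ± 0.20, adjusted p = 1.31e-06) and not in the other genotypes. WRKY7, WRKY21 (AT2G30590) and WRKY39 (AT3G04670) were called in no genotype, with log2 changes after MG between −0.18 and 0.34.

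Subgroup IIe moved in both directions. WRKY29, which together with WRKY22 (AT4G01250) acts downstream of the flagellin receptor and its MAP kinases, had 6.04, 6.79 and 8.44 CPM in WT mock and 49, 18.5 and 37.7 CPM after MG. The groups did not overlap (2.31 ± 0.36, adjusted p = 2.93e-05). After NaCl it stood at 7.9, 3.85 and 7.3 CPM, around the mock values. WRKY22 was called in glyI2 (1.48 ± 0.52, adjusted p = 0.0305), with a response not shown to differ from that of WT (0.54 ± 0.72, adjusted p = 0.784). WRKY27 (AT5G52830), known from bacterial wilt, was called in none of the genotypes. WRKY14 fell, from 7.23, 7.64 and 8.02 CPM to 2.81, 3.4 and 2.38 CPM in WT (−1.42 ± 0.22, adjusted p = 2.07e-05) and from 12.9, 6.79 and 10.8 CPM to 1.38, 1.25 and 1.2 CPM in glyI2. WRKY65 fell from 30.7, 25.4 and 30.9 CPM to 12.6, 13.7 and 8.58 CPM in WT (−1.32 ± 0.25, adjusted p = 0.000355). For both genes every MG library was below every mock library of its genotype. In glyI2 WRKY35 (AT2G34830, −1.91 ± 0.40, adjusted p = 0.000536) and WRKY69 (AT3G58710, −1.29 ± 0.22, adjusted p = 4.05e-05) also fell, so 4 of the 7 IIe genes were lower there and 2 higher. The share called in IIe was 85.7%, against 29.2% of all genes. WRKY29 and WRKY69 overlap another annotated locus, as do WRKY1, WRKY2, WRKY4, WRKY9 (AT1G68150), WRKY33, WRKY34, WRKY40, WRKY41 (AT4G11070), WRKY53 (AT4G23810) and WRKY61, and the counts of these 12 members are uncertain because it is not stated whether reads were counted by strand.

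In subgroup III, 2 of 8 tested genes rose in WT and 7 of 8 in glyI2. These are 25% and 87.5%, against 10.7% and 29.2% of all genes called. The WT calls were WRKY63 and WRKY55, which passed the expression filter only through treated libraries, so the count in WT rests on them alone. WRKY63, an abscisic acid response factor, had 0.274, 0.283 and 0.211 CPM in WT mock and 4.04, 3.95 and 5.6 CPM after MG (4.12 ± 0.71, adjusted p = 9.94e-05). WRKY55, tied to leaf senescence, had 0.0457, 0.236 and 0.127 CPM in WT mock, 0.761, 1.54 and 0.509 CPM in MG-treated WT and 14.9, 21.8 and 9.93 CPM in MG-treated glyI2. In glyI2 mock it had 0.0547, 0.134 and 0 CPM, at or below the level of 3 counts in each library, so its fold changes rest on very few mock reads and depend on the prior count. WRKY30 (AT5G24110), an early responder to oxidative stress and elicitors, stayed at 0.713, 0.185 and 0.722 CPM in MG-treated WT, around its WT mock values of 0.686, 0.33 and 0.38 CPM. In MG-treated glyI2 it had 13.1, 11.8 and 12.8 CPM, with a change from mock of 4.65 ± 0.47 (adjusted p = 6.6e-09). WRKY53, a senescence regulator, rose in glyI2 too (2.14 ± 0.43, adjusted p = 0.000353), as did WRKY46 (AT2G46400, 2.46 ± 0.62, adjusted p = 0.00313), WRKY41 (1.93 ± 0.56, adjusted p = 0.0101) and WRKY70 (AT3G56400, 1.5 ± 0.53, adjusted p = 0.034), a salicylic acid response factor. Of these, the responses of WRKY30 and WRKY55 were shown to differ from WT, as the interaction term shows in the next comparison. The low genes WRKY41 and WRKY46 had at most 2.66 and 3.92 CPM in any library.

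The size of the MG response was then compared between each line and WT through the interaction term. For glyI2, 9 members differed, 6 towards higher and 3 towards lower values, or 17% of the tested members against 3.97% of all genes. WRKY30 differed by 4.4 ± 0.67 (adjusted p = 0.00013), WRKY55 by 5.16 ± 1.01 (adjusted p = 0.00229) and WRKY8 by 2.27 ± 0.60 (adjusted p = 0.0278). WRKY25, WRKY17 and WRKY6 differed by 1.43, 1.09 and 1.03 (adjusted p = 0.0214, 0.0214 and 0.0328). On the lower side, WRKY14 differed by −1.56 ± 0.31 (adjusted p = 0.00276), WRKY35 by −2.34 ± 0.55 (adjusted p = 0.0118) and WRKY9 by −2.22 ± 0.59 (adjusted p = 0.0283). WRKY9 had 0.646, 1.52 and 1.24 CPM in MG-treated glyI2 and 7.99, 2.47 and 8.19 CPM in MG-treated WT. WRKY35 had 1.03, 0.899 and 0.521 and 3.38, 4.82 and 1.91 CPM in the same groups, and WRKY17 had 78.2, 91.4 and 69.2 and 29, 40.04 and 26.3 CPM. For WRKY35 and WRKY9 the glyI2 libraries were below all WT libraries, and for WRKY17 they were above them. The calls of WRKY14, WRKY30 and WRKY55 held under every alternative run, while each of the other 6 was lost when at least 1 library was left out. WRKY55 passed the expression filter only through treated libraries, so its difference rests on the libraries where it was high. The share among members that pass on the mock libraries alone was not computed for this comparison. Without replicate 1 of WT mock 4 members were called, and without replicate 2 of MG-treated WT 5 were. Fitting only the compared groups called 10 members, 9 higher and 1 lower, and 7 of them were among the 9 of the main fit. WRKY35 and WRKY9 were not called in that run. Shares of all genes in these alternative runs were not computed.

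**Figure D4:**
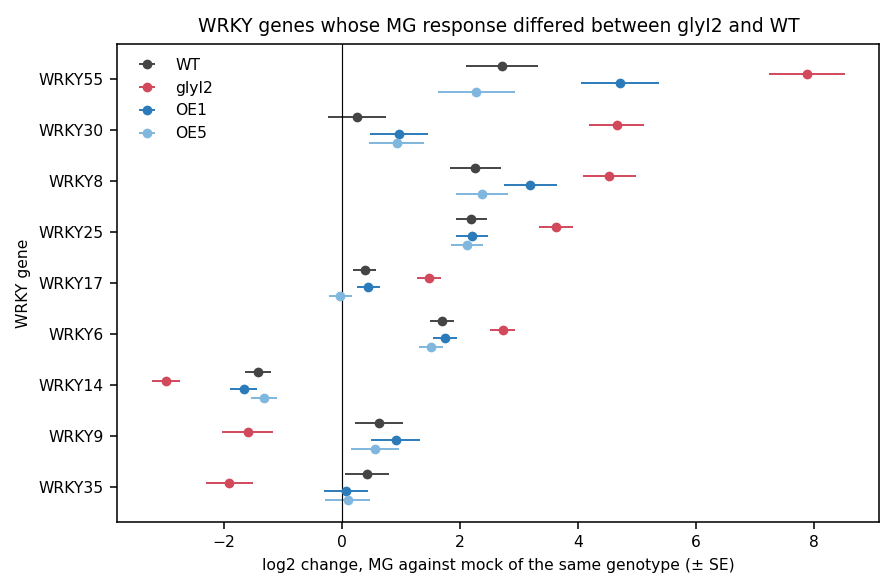
Log2 change after MG against mock of the same genotype (x axis, point with SE, 3 libraries per group) for the 9 WRKY genes whose response differed between glyI2 (red) and WT (grey); OE1 and OE5 are in dark and light blue. The glyI2 points of WRKY55, WRKY30 and WRKY8 lie to the right of the other genotypes, and those of WRKY14, WRKY9 and WRKY35 to the left.

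The MG levels of responders shared by all genotypes were also read in OE1 and OE5. WRKY51 had 5.57, 7.21 and 8.61 CPM in MG-treated OE1 and 6.97, 2.39 and 13 CPM in MG-treated OE5. WRKY75 had 5.37, 5.93 and 9.95 and 8.85, 4.53 and 15.5 CPM, and WRKY29 had 33.9, 29.4 and 29 and 34.4, 28.2 and 29.5 CPM. The ranges of both lines overlapped with that of MG-treated WT for all 3 genes. WRKY63 reached 2.12, 2.3 and 5.3 CPM in OE1 and 3.91, 1.73 and 7.01 CPM in OE5, and 2.84, 1.84 and 2.72 CPM in glyI2. WRKY55 had 1.86, 1.82 and 2.1 CPM in OE1, above the 0.536, 0.535 and 0.556 CPM of OE5.

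For OE1 and OE5 the MG response of no member differed from that of WT by edgeR, by DESeq2 or at an unadjusted p under 0.05, with 0.00482% of all genes called for each line. The fitted differences ranged from −1.21 to 2.00 in OE1 and from −0.99 to 0.82 in OE5. In mock seedlings no member differed between a line and WT by edgeR or DESeq2, beside 0.0434% of all genes for glyI2, 0.053% for OE1 and 0.0386% for OE5. The share of all genes at an unadjusted p under 0.05, a level that some genes pass without any change, was not computed. At that level there were 1, 6 and 1 members, which by themselves show no line effect. WRKY75 was among them in OE1 and OE5, with 0.836, 0.824 and 0.515 and 0.932, 1.17 and 0.484 CPM beside 1.42, 1.32 and 2.49 in WT, but its libraries low in CCA1 were the lowest of both lines.

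After NaCl few WRKY genes were called within a genotype. In WT 2 rose and 1 fell (5.66% against 7.12% of all genes), and in glyI2 2 fell (3.77% against 7.05%). In OE1 4 rose (7.55% against 5.33%), and in OE5 5 rose and 1 fell (11.3% against 5.48%). Among the 49 members that pass the expression filter on the mock libraries alone, the shares were 6.12% in WT, 4.08% in glyI2, 8.16% in OE1 and 10.2% in OE5. Those of all genes that pass in the same way were 6.85%, 6.72%, 5.07% and 5.17%. No member was called in all 4 genotypes. Over the 4 genotypes, 5 genes rose in at least 1, 2 fell in at least 1 and 46 were called in none. The 7 called in at least 1 make up 13.2% of the tested members, against 11.2% of all genes, with 9.43% against 6.66% for rises and 3.77% against 4.56% for falls. Of all genes 1.78% rose and 1.13% fell in all 4 genotypes.

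WRKY25 and WRKY60 rose in WT, OE1 and OE5. WRKY60 had 8.37, 8.11 and 6.25 CPM in WT mock and 20.03, 13.5 and 19.3 CPM after NaCl, without overlap (1.22 ± 0.31, adjusted p = 0.0143). WRKY25 rose by 1.02 ± 0.26 (adjusted p = 0.0139) in WT, and its level after MG was above that after NaCl by 1.17 ± 0.26 (adjusted p = 0.00205). WRKY54 (AT2G40750), a partner of WRKY70 in senescence control, fell in WT, glyI2 and OE5. It had 1.1, 0.613 and 0.928 CPM in WT mock and 0.271, 0.105 and 0.253 CPM after NaCl (−2.0 ± 0.55, adjusted p = 0.0243). Its NaCl libraries were lower than mock, at 7, 2 and 7 counts.

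WRKY30 and WRKY53 rose after NaCl in OE1 and OE5. WRKY53 had 2.01, 0.883 and 1.86 CPM in OE1 mock and 4.47, 7.46 and 6.03 CPM after NaCl (1.91 ± 0.45, adjusted p = 0.00922), with no overlap. For WRKY30 in OE5 the values were 0.776, 0.42 and 0.396 and 1.19, 1.12 and 2.84 CPM (1.71 ± 0.45, adjusted p = 0.0206). WRKY71, a shoot branching and flowering factor, rose in OE5 (2.04 ± 0.50, adjusted p = 0.0126), from 0.155, 0.168 and 0.22 to 0.895, 0.402 and 0.986 CPM. It passed the expression filter only through treated libraries. WRKY36 fell in glyI2 (−0.78 ± 0.23, adjusted p = 0.0317), from 6.29, 7.06 and 10.4 to 4.04, 4.3 and 5.53 CPM. In WT all 3 NaCl calls were lost when single libraries were left out, with adjusted p up to 0.0882 for WRKY25, 0.0946 for WRKY60 and 0.101 for WRKY54. No member's NaCl response differed between a line and WT by edgeR, by DESeq2 or at an unadjusted p under 0.05, and 0% of all genes were called.

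Taken as the mean over the 4 genotypes, which gives 12 libraries a side, NaCl raised 18 members and lowered 6, or 45.3% against 30.5% of all genes. In the same mean the root markers CASP1 (−0.93 ± 0.17, adjusted p = 7.69e-05) and COBL9 (−0.62 ± 0.22, adjusted p = 0.036) were lower, while EXPA7 and EXPA18 were at −0.30 and −0.03 and not called. The largest rises were WRKY53 (1.45 ± 0.22, adjusted p = 6.32e-06), WRKY30 (1.44), WRKY46 (1.32), WRKY71 (1.23) and WRKY48 (1.2), and the largest falls were WRKY54 (−1.84) and WRKY51 (−1.06). Of these, WRKY71 passed the expression filter only through treated libraries. Without the libraries low in CCA1 the fall of WRKY51 was not called, at −0.88 (adjusted p = 0.101), nor were the rises of WRKY2 (0.24, adjusted p = 0.0837), WRKY23 (0.25, adjusted p = 0.212) and WRKY44 (0.56, adjusted p = 0.0783). The same mean for MG raised 32 members and lowered 5, or 69.8% against 35% of all genes. Among the raised were WRKY58, WRKY71, WRKY55 and WRKY63, which passed the expression filter only through treated libraries. In this mean for MG, WRKY57 (AT1G69310), a drought and senescence factor, was lower (−0.63 ± 0.16, adjusted p = 0.00318) although it was called in no single genotype with all libraries. Without those low in CCA1 it was called in OE1 (−0.82, adjusted p = 0.0396).

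NaCl and MG were compared directly in WT, where 14 members were higher and 1 lower after MG (28.3% against 11.7% of all genes). WRKY51 differed most (5.15 ± 0.56, adjusted p = 1.09e-07), then WRKY63 (4.01 ± 0.70, adjusted p = 0.000146), WRKY55 (3.19 ± 0.63, adjusted p = 0.0006) and WRKY72 (2.6 ± 0.36, adjusted p = 4.67e-06), while WRKY14 was lower (−1.48 ± 0.22, adjusted p = 1.43e-05). WRKY63, WRKY55 and WRKY58, all among the higher members, passed the expression filter only through treated libraries. Over the 4 genotypes 23 members were higher and 6 lower after MG than after NaCl (54.7% against 42.9% of all genes). WRKY60 and WRKY20 were among the lower ones, at −0.54 and −0.41. WRKY63, WRKY55 and WRKY58 were again among the higher ones.

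Several members varied widely between the libraries of a group. The SD of log2 CPM within groups ran from 0.18 for WRKY7 to 0.85 for WRKY33, with a median of 0.45 over the tested members and 0.37 over all genes tested. WRKY33 was higher in all 7 libraries low in CCA1 than in the mean of the other libraries of the same group, by 0.78 to 2.92 on the log2 scale. In OE1 mock its values were 6.68, 4.3 and 41.1 CPM, the last being the library low in CCA1. WRKY18 and WRKY70 were higher in all 7 of these libraries as well, and WRKY40 and WRKY22 in 6, while WRKY75 was lower in all 7. Of the tested members, 18.9% were higher in all 7 and 11.3% lower in all 7, beside 17.5% and 15% of all genes.

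**Figure D5:**
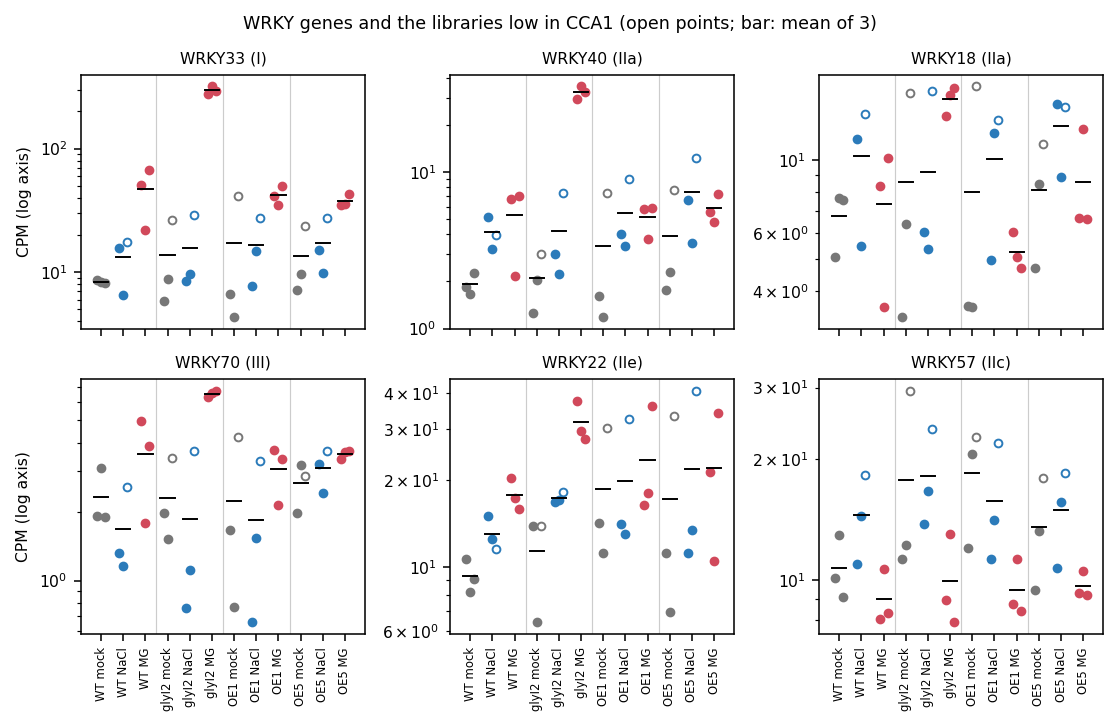
TMM-scaled CPM (log y axis) of WRKY33, WRKY40, WRKY18, WRKY70, WRKY22 and WRKY57 in each of the 36 libraries, by genotype and treatment (x axis), with means of 3 libraries as bars. Open points are the 7 libraries low in CCA1; for WRKY33 each of them is the highest of its group.

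Leaving these libraries out changed several calls. WRKY33 was not called after MG in OE1 (1.26 ± 0.66, adjusted p = 0.315) or OE5 (1.49 ± 0.66, adjusted p = 0.22). Without the 7 libraries it was, at 2.9 (adjusted p = 3.39e-05) and 2.16 (adjusted p = 0.000542). WRKY40 likewise became called in WT, OE1 and OE5, at 1.48 (adjusted p = 0.00448), 1.84 (adjusted p = 0.00505) and 1.52 (adjusted p = 0.0148). WRKY18 became called in glyI2 (1.69, adjusted p = 0.00595) and in the mean for MG (0.68, adjusted p = 0.015), and WRKY22 in OE5 (1.27, adjusted p = 0.0493). The difference in MG response between glyI2 and WT became called for WRKY33 (2.91, adjusted p = 0.00124), WRKY40 (2.85, adjusted p = 0.00221), WRKY11 (1.16, adjusted p = 0.0105) and WRKY69 (−1.16, adjusted p = 0.0325), and none of the 9 called differences was lost. After NaCl, OE5 lost the calls of WRKY71, WRKY60, WRKY54 and WRKY30 and glyI2 those of WRKY36 and WRKY54. In WT NaCl WRKY25 was at 0.95 (adjusted p = 0.0577) without them. Calls gained after NaCl were WRKY6 in glyI2, OE1 and OE5, WRKY72 (lower) in glyI2, WRKY20 and WRKY30 in WT, and WRKY33 and WRKY18 in the mean. For MG against NaCl, WRKY33 (2.06, adjusted p = 0.000846), WRKY70 (1.51, adjusted p = 0.0177) and WRKY65 (−0.81, adjusted p = 0.0434) became called in WT. In the mean the same comparison gained WRKY22, WRKY23, WRKY26, WRKY30 and WRKY50 as higher after MG, and WRKY27, WRKY47 and WRKY69 as lower.

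Genes that work with WRKY proteins were read from 3 lists chosen with earlier results of these data known. For these lists, shares among genes that pass the expression filter on the mock libraries alone were not computed. Of 9 genes of the MAP kinase cascade above WRKY factors, 1 rose after MG in WT, OE1 and OE5 (11.1% in each, against 10.7%, 9.79% and 8.82% of all genes called) and 5 in glyI2 (55.6% against 29.2%). MEKK1, the kinase at its head, rose in all 4 genotypes, by 0.88 ± 0.17 (adjusted p = 0.000562) in WT. MKK4, which activates the kinases that phosphorylate WRKY33, rose in glyI2 (1.51 ± 0.17, adjusted p = 5.76e-08), and its response differed from that of WT by 1.18 ± 0.24 (adjusted p = 0.00309).

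Of 18 genes for VQ-motif proteins, which bind WRKY factors, 6 rose after MG in WT, 10 in glyI2, 6 in OE1 and 4 in OE5. These are 33.3%, 55.6%, 33.3% and 22.2%, against 10.7%, 29.2%, 9.79% and 8.82% of all genes called. The largest log2 change after MG in WT was 5.89, both against mock and against NaCl. Some of these genes may thus have passed the expression filter only through libraries where they were high. SIB1, a partner of WRKY33, had 0.366, 0.896 and 0.506 CPM in WT mock, 2.81, 2.6 and 3.4 CPM in MG-treated WT and 73.7, 60.4 and 59 CPM in MG-treated glyI2. The 3 groups did not overlap, and the response was larger in glyI2 by 3.86 ± 0.54 (adjusted p = 4.57e-05). MKS1, which ties WRKY33 to MPK4, rose in glyI2 (2.71 ± 0.29, adjusted p = 2.2e-08) and OE1 (0.90 ± 0.28, adjusted p = 0.0332). JAV1, a repressor of jasmonate defence that binds WRKY51, rose in all 4 genotypes, by 1.07, 2.35, 1.27 and 0.89 in WT, glyI2, OE1 and OE5.

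Of 14 genes known as direct WRKY targets, 12 were tested. After MG 4 rose and 1 fell in WT, 4 rose and 2 fell in glyI2, and 3 rose and 1 fell in each of OE1 and OE5. The shares called were 41.7%, 50% and, in both OE lines, 33.3%, against 10.7%, 29.2%, 9.79% and 8.82% of all genes. PAD3, the last enzyme of camalexin synthesis and a target of WRKY33, had 4.07, 5.76 and 3.21 CPM in WT mock, 106, 91 and 98.6 CPM in MG-treated WT and 59.6, 70.1 and 51.9 CPM in MG-treated glyI2. All MG libraries were above all mock libraries, and PAD3 rose by 4.51 ± 0.33 (adjusted p = 6.95e-11) in WT and 3.6 ± 0.31 (adjusted p = 4.58e-10) in glyI2. ACS2 and ACS6, ethylene synthesis enzymes, rose in all 4 genotypes, by 3.68 and 2.42 in WT and 5.92 and 4.26 in glyI2. PHO1, the target of WRKY6 and WRKY42, fell after NaCl and after MG in every genotype, with log2 changes of −1.31 ± 0.29 (adjusted p = 0.00372) and −1.67 ± 0.29 (adjusted p = 0.000103) in WT. PHT1;1, a phosphate uptake gene under WRKY45, WRKY42 and WRKY75, rose in WT (1.37 ± 0.42, adjusted p = 0.0306) and fell in glyI2 (−2.74 ± 0.44, adjusted p = 1.93e-05), a difference of −4.11 ± 0.61 (adjusted p = 8.54e-05).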

How the data were processed

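The authors' deposited counts per gene (whole numbers, not normalized) and FPKM values were used for 36 RNA libraries. Per the submitters' processing notes, the tools were HISAT2 2.0.4 for alignment and HTSeq for counting, with TAIR10 as the genome build. Use of strand in the counting is not stated in these sources. The 3 chromatin samples, and member sequences, were not analysed here.

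Counts of all genes were tested by edgeR 4.0.16 (R 4.3.3), using its quasi-likelihood F test, TMM scaling and the default expression filter, in 1 robust fit of 12 group means. A call means a p under 0.05 after Benjamini-Hochberg adjustment across the 20748 tested genes. TMM scaling factors ran from 0.759 to 1.28, with a biological coefficient of variation of 28.3%. Levels are TMM-scaled CPM, one value per library, and log2 changes are given ± SE, derived from the F statistic, with 3 libraries per group. The authors' FPKM values, per length, served only to compare levels between genes. The fit was tested on simulated counts.

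Members, gene lists and tests were chosen with earlier results of these data known. Library values were to be given for the 12 members with the lowest adjusted p in the WT and mean comparisons and up to 6 in each other comparison with a call. WRKY33, WRKY40, WRKY58, WRKY9, WRKY15 and WRKY61 were given in the same way, chosen after their values were seen. Alternatives were DESeq2 1.42.0, RLE scaling, no filter, the replicate number as a block, the compared groups only and leaving out each library. Leaving out the 7 libraries low in CCA1, and the filter on mock libraries alone, were added after the data were seen.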

Additional observations from a re-analysis of the deposited data

Results flagged for a closer look

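The response to MG differed between glyI2 and WT for 9 WRKY genes, by an interaction term in edgeR (log2 difference, glyI2 minus WT, with its SE and adjusted p over all genes tested). These were 17% of the tested members, against 3.97% of all genes. Higher values in glyI2 were found for WRKY55 at 5.16 ± 1.01 (adjusted p = 0.00229), WRKY30 at 4.4 ± 0.67 (adjusted p = 0.00013) and WRKY8 at 2.27 ± 0.60 (adjusted p = 0.0278). The same held for WRKY25 at 1.43 ± 0.37 (adjusted p = 0.0214), WRKY17 at 1.09 ± 0.28 (adjusted p = 0.0214) and WRKY6 at 1.03 ± 0.28 (adjusted p = 0.0328). Lower values in glyI2 were found for WRKY35 at −2.34 ± 0.55 (adjusted p = 0.0118), WRKY9 at −2.22 ± 0.59 (adjusted p = 0.0283) and WRKY14 at −1.56 ± 0.31 (adjusted p = 0.00276). For WRKY30, WRKY35, WRKY17 and WRKY9 the WT response itself was not called, at 0.26, 0.43, 0.38 and 0.63. WRKY55 passed the expression filter only through treated libraries, and its difference rests on very few mock reads. The calls of WRKY14, WRKY30 and WRKY55 held under every alternative run. Each of the others was lost when at least 1 library was left out, and such runs gave 4 to 9 calls. WRKY35 and WRKY9 were not called when only the compared groups were fitted. With 3 libraries in a group, no single library was tested for standing apart.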

How the results depend on the processing

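The counts of WRKY genes called after MG stayed within 1.5 times of the main count under every alternative, in each genotype and in the mean, and of 217 calls of members over all comparisons 160 held under every alternative and none reversed. The counts after NaCl were less steady. Shares of all genes called were computed only for the main fit. The counts from alternative runs therefore show steadiness and no excess of WRKY genes over all genes. DESeq2 called 7 members in WT and 5 in glyI2 after NaCl. With the replicate block these were 8 in WT and 7 in glyI2. Fitting only the compared groups gave 0 in glyI2, 1 in OE1 and 1 in OE5, without a filter OE1 had 2, and without the libraries low in CCA1 OE5 had 3. The labels do not say that replicate numbers pair the libraries, so no pairing was used in the main fit. If they do, the main fit counts shared differences as spread, and its NaCl counts may be too low. The correlation of deviations had a median of 0.183 and was over 0.1 in 120 of 198 same-numbered pairs, against −0.082 and 102 of 396 for different numbers. On average 31 of the 36 libraries correlated best with their own number, a hint from the data and not from the design. Leaving out 1 library gave 0 to 2 calls in WT NaCl (0 without replicate 3 of WT mock or of WT NaCl), 1 to 2 in glyI2, 0 to 4 in OE1 (0 without replicate 2 of OE1 mock) and 2 to 4 in OE5. For MG it gave 14 to 20 in WT, 30 to 31 in glyI2, 15 to 19 in OE1 and 14 to 17 in OE5, and 15 to 18 for MG against NaCl in WT. The means over genotypes gave 22 to 26 for NaCl, 34 to 38 for MG and 27 to 32 for MG against NaCl, and the glyI2 difference in MG response 4 to 9. The comparisons with no call stayed at 0. The causes were not tested. Depth limits WRKY34, WRKY38, WRKY62, WRKY64, WRKY67 and WRKY74, which could not be tested.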

Other observations

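Deviations from the group mean were set beside each other for the 1378 pairs of tested members over the 36 libraries, as a description only, since the libraries share depth, scaling and composition. Pearson's r ran from −0.84 to 0.95, with a median of 0.07. WRKY1 and WRKY3, both of subgroup I, had the highest r at 0.95. Their deviations also followed the TMM scaling factor of the library, with r of 0.91 for each. WRKY33 followed WRKY40 (0.91) and WRKY18 (0.91), genes that were high together in the libraries low in CCA1. The deviations of WRKY33, WRKY40 and WRKY18 followed the scaling factor too, with r of 0.78, 0.65 and 0.92. WRKY29 and WRKY53 reached 0.85, and their r with the scaling factor was 0.77 and 0.72.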
